A study of Mus musculus with 8 samples.

Results

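The Hox genes were followed in RNA sequencing of cultured mouse colon fibroblasts. The members were the protein-coding genes whose symbol is Hox, a cluster letter from a to d and a paralogue number from 1 to 13, with nothing more. 39 of 45321 genes met this rule, and 21 of them were among the 12963 genes with enough reads to be tested. HoxA held 11 members on chromosome 6, HoxB 10 on chromosome 11, HoxC 9 on chromosome 15 and HoxD 9 on chromosome 2.

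Hox genes encode homeodomain transcription factors that lie side by side in clusters. Their order along the chromosome follows the order in which they act along the head-to-tail axis of the embryo, so that genes with a low number act near the head and genes with a high number near the tail and in the hindgut. Genes with the same number in different clusters are paralogues, and fibroblasts of adult organs are known to keep a Hox pattern that depends on where in the body they came from.

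Poly(A) RNA of 8 libraries was sequenced, 4 from cultures with loxP-flanked Zeb1 (genotype Zeb1 flox/flox, Fib-Ctrl) and 4 from cultures with the deleted allele (Zeb1 del/del, Fib-dZeb1). Zeb1 encodes a zinc finger repressor best known from epithelial-mesenchymal transition. Each genotype had 2 fibroblast lines with 2 replicates each, and the labels state colon as tissue and no treatment for all 8. The study describes adherent cultures from Zeb1 fl/fl mice that were recombined in culture by inducing Cre. Cre driven by Col6a1 or Col1a2 regulatory sequence is described for the mice of the study, whereas the driver used in these cultures, and what the Fib-Ctrl cultures received when Cre was induced, were not given in the sources used here, so the effects of the deleted allele and of the induction itself cannot be told apart. The labels give neither the animal nor the stretch of colon behind a line. Line 1 and line 2 are label numbers, and lines with the same number in both genotypes are not known to be related. Xist had 5256 and 2704 reads in Fib-dZeb1 line 1 and 0 in Fib-Ctrl line 1. Ddx3y had 0 reads in Fib-dZeb1 line 1, and 2414 and 1489 in Fib-Ctrl line 1. The lines numbered 1 thus differed in sex and did not stem from the same animal.

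Levels are given as TPM, the read density per transcript length scaled to the same total in each library, on which different genes can be set side by side. Values for tested or low genes are also given as CPM, reads scaled to the same total in each library, which do not correct for length. Where 8 values are listed, the order is line 1 replicate 1, line 1 replicate 2, line 2 replicate 1 and line 2 replicate 2, first for Fib-Ctrl and then for Fib-dZeb1. Libraries held 18852422 to 25540529 estimated reads. Zeb1 was at 93.9, 94.4, 92.1 and 98.5 CPM in the Fib-Ctrl libraries and at 18.3, 14.5, 11.4 and 12.8 CPM in the Fib-dZeb1 libraries, so every library matched its label. Its log2 fold change was -2.73 (SE 0.15, adjusted p = 4.8e-05, edgeR). P-values over the 8 libraries treat the replicates of a line as independent and measure the spread between these libraries, which may in part be technical.

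The cultures carried a Hox pattern dominated by high paralogue numbers of HoxA and HoxB. 17 of the 39 members reached 1 TPM in every library, 7 in HoxA, 8 in HoxB, 2 in HoxD and 0 in HoxC. Genes with paralogue numbers 9 to 13 made up 68.9% ± 8.23 of all Hox TPM in Fib-Ctrl and 64.5% ± 3.94 in Fib-dZeb1 (SD, n = 4). Numbers 4 to 8 held 23.4% ± 5.73 and 26.7% ± 3.2, and numbers 1 to 3 held 7.74% ± 2.68 and 8.83% ± 0.763. These shares overlapped between the genotypes.

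With all annotated forms of a gene summed, Hoxa10, Hoxa11 and Hoxb9 were the highest members, in this order, in all 8 libraries. Together they made up 48.4% to 65.7% of the Hox TPM of a library. Hoxa10-203, a form of Hoxa10 without a coding sequence, held 27.7% to 42.2% of the Hoxa10 TPM of a library by estimate. Coding forms alone did not keep this order. In Fib-Ctrl line 1 replicate 1, Hoxa10-201 and Hoxa10-202 were at 55.7 and 31.9 TPM and Hoxa11-201 at 109.6 TPM. Hoxa10, known from the development of the reproductive tract and the lumbar skeleton, stood at 179.5, 130.7, 67.1 and 75.2 TPM in Fib-Ctrl and 69.1, 60.5, 108.3 and 98.1 TPM in Fib-dZeb1. Its mean was 113.1 ± 52.5 TPM in Fib-Ctrl and 84.0 ± 22.8 TPM in Fib-dZeb1, and 820 to 2710 genes had a higher TPM in the same library. Fib-Ctrl line 1 and Fib-dZeb1 line 2 were the higher lines of their genotypes, and the genotypes overlapped. Hoxa11, which acts in limb, kidney and uterus development, followed the same order of lines, with 113.0, 94.4, 39.6 and 44.1 TPM in Fib-Ctrl and 62.0, 58.0, 72.2 and 69.1 TPM in Fib-dZeb1. Averaged over all libraries, Hoxa10 lay above 87.7% of the tested genes in TPM, Hoxa11 above 81.9% and Hoxb9 above 73.8%.

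Hoxa9, the third gene of HoxA by mean level, is best known from blood progenitors and leukaemia. It stood at 18.7, 18.6, 7.28 and 7.33 TPM in Fib-Ctrl and 5.72, 8.36, 19.7 and 24.3 TPM in Fib-dZeb1. As with Hoxa10, Fib-Ctrl line 1 and Fib-dZeb1 line 2 were high and the other lines low, without overlap between the lines of a genotype. The genotype means were 12.97 ± 6.54 and 14.5 ± 8.9 TPM (SD, n = 4).

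In HoxB, all 8 members from Hoxb2 to Hoxb9 exceeded 1 TPM in every library. Hoxb9, a gene of the thoracic region, stood at 58.2, 78.7, 38.5 and 42.4 TPM in Fib-Ctrl and 30.7, 25.9, 41.5 and 55.3 TPM in Fib-dZeb1. Hoxb8 stood at 35.0, 37.6, 15.4 and 22.9 TPM in Fib-Ctrl and 27.5, 14.6, 35.2 and 41.0 TPM in Fib-dZeb1. For both genes the range of Fib-dZeb1 overlapped that of Fib-Ctrl, and the lines of a genotype were ordered as for Hoxa10. Hoxb2, a hindbrain patterning gene, ran at 13.7, 9.39, 17.8 and 19.96 TPM in Fib-Ctrl and 16.8, 13.9, 19.95 and 19.1 TPM in Fib-dZeb1, where the ranges again overlapped.

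The 5′ ends of the clusters differed in how far transcripts reached. The most 5′ gene at 1 TPM or more in every library of a genotype was number 13 in HoxA and HoxD and number 9 in HoxB, in both genotypes. Hoxb13, at the far end of HoxB and known from the tail end of the body, the prostate and the distal colon epithelium, yielded 31 reads in the 4 Fib-Ctrl libraries and 8 in the 4 Fib-dZeb1 libraries and was not tested. Hoxd13, a gene of the digits and the hindgut, was present in every library, at 11.3, 5.66, 19.3 and 9.68 TPM in Fib-Ctrl and 9.76, 21.1, 4.56 and 2.1 TPM in Fib-dZeb1. Hoxd13 was among the members with the widest spread between libraries, replicates of a line included. Between Hoxd13 and Hoxd9, the genes Hoxd12, Hoxd11 and Hoxd10 were too low to be tested. They yielded 4, 133 and 49 reads in the Fib-Ctrl libraries and 0, 11 and 3 in those of Fib-dZeb1.

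HoxC was all but silent. Of 171217046 reads in the 8 libraries, 3 were assigned to the 9 HoxC genes, 2 to Hoxc4 in Fib-dZeb1 line 2 replicate 1 and 1 to Hoxc13 in Fib-dZeb1 line 2 replicate 2. The other 7 HoxC genes, Hoxb1 and Hoxd1 had no read in any library, which allows up to 0.0175 CPM for each. This limit covers counting error only, since reads amplified by PCR are not independent molecules. The protein-coding genes that flank HoxC were expressed, for example Cbx5, a heterochromatin protein, with 239.8 ± 33.2 CPM in Fib-Ctrl libraries and 342.1 ± 36.2 CPM in those of Fib-dZeb1. Halr1, Haglr and Hotair, non-coding genes of the HoxA, HoxD and HoxC clusters, had no read.

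**Figure D1:**
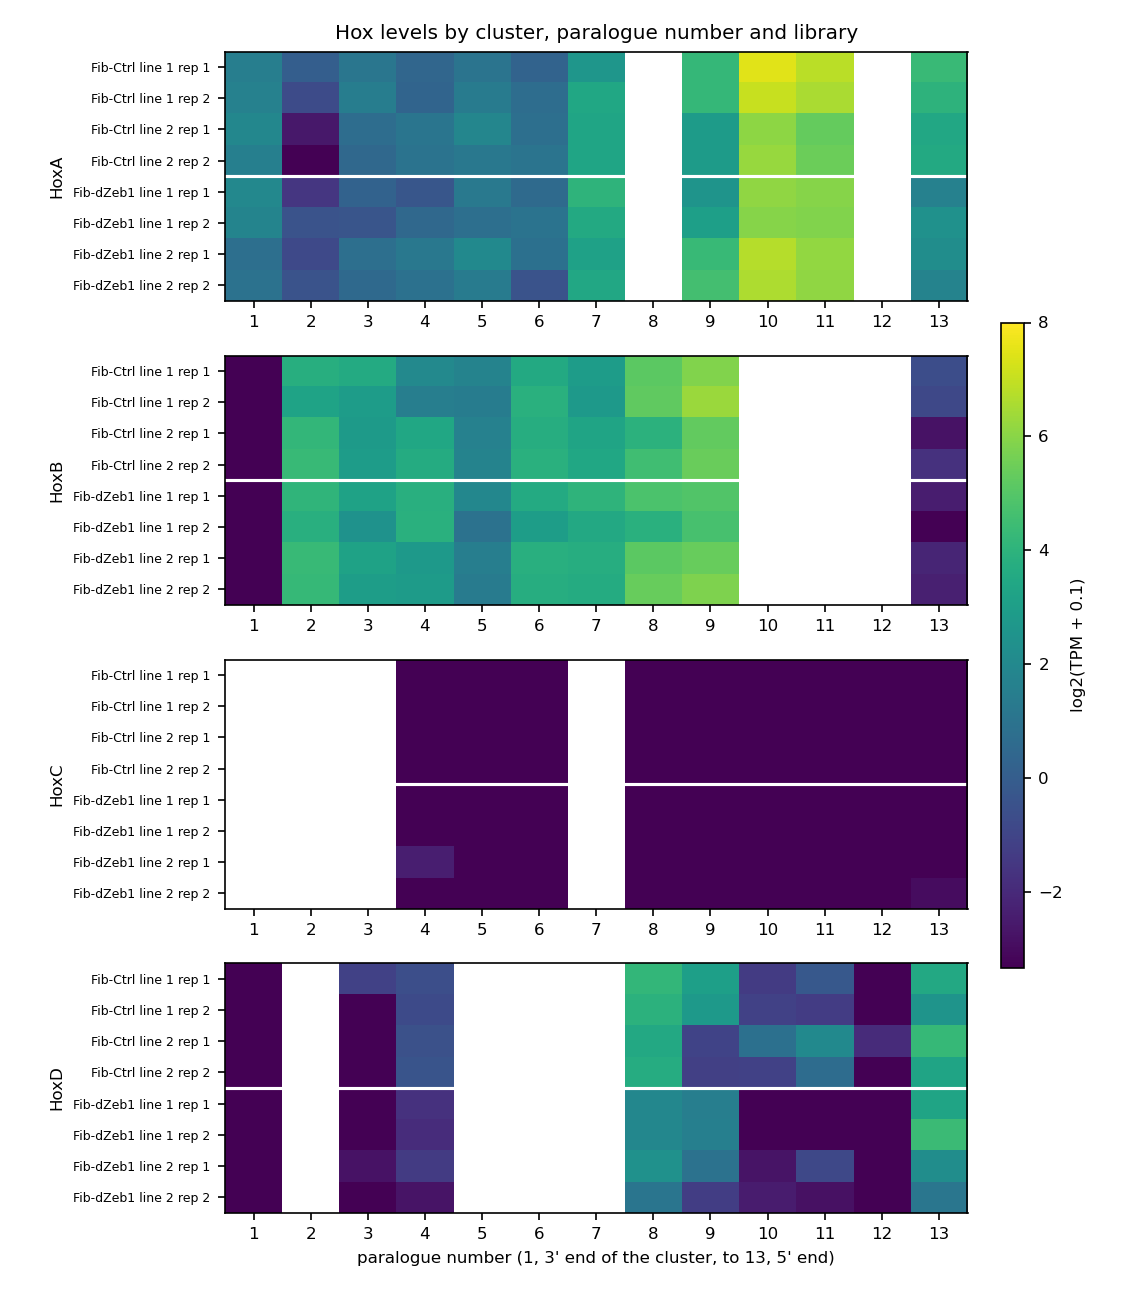
Level of each of the 39 Hox genes in each of the 8 libraries, in 4 panels for the clusters HoxA to HoxD. The horizontal axis is the paralogue number from 1 to 13, the vertical axis the library, and the colour log2(TPM + 0.1), with blank fields where the cluster holds no gene of that number. Levels are highest at numbers 10 and 11 of HoxA and at number 9 of HoxB, and HoxC is at the bottom of the scale in all libraries.

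By genotype, 2 of the 21 tested Hox genes were lower in Fib-dZeb1 and 0 were higher. This is 9.52% of the tested members, against 8.65% of all tested genes called lower (edgeR quasi-likelihood test, Benjamini-Hochberg adjusted p under 0.05) and 7.54% called higher, so the share of Hox genes called was near that of all genes. In either direction, 16.2% of all tested genes were called. At an unadjusted p under 0.05, 4 members were lower and 0 higher, where 16.8% of all tested genes were lower and 15.97% higher. DESeq2, which gave an adjusted p to 26 members, called 0 of them higher and 4 lower, against 10.4% and 11.6% of 15110 genes. Among the 21 tested, the CPM of the genotypes did not overlap for the same 2 genes, both lower, where 12.3% of all genes had non-overlapping lower and 12% non-overlapping higher values. The genes called were Hoxa13 and Hoxd8.

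Hoxa13 acts in the hindgut, the genital tubercle and the limb bud. It stood at 20.4, 15.6, 10.8 and 11.6 TPM in Fib-Ctrl and 3.07, 5.16, 4.63 and 3.28 TPM in Fib-dZeb1. Every Fib-Ctrl library lay above every Fib-dZeb1 library. The mean fell from 19.1 ± 5.31 to 4.86 ± 1.28 CPM (SD, n = 4), a 3.93-fold difference, with a log2 fold change of -1.97 (SE 0.262, adjusted p = 0.00373, edgeR).

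Hoxd8, a gene of the trunk region, stood at 18.2, 15.3, 11.1 and 12.7 TPM in Fib-Ctrl and 3.7, 3.7, 5.27 and 2.02 TPM in Fib-dZeb1. The genotypes did not overlap here either. The mean fell from 19.2 ± 3.57 to 4.49 ± 1.63 CPM, a 4.28-fold difference, with a log2 fold change of -2.10 (SE 0.284, adjusted p = 0.00402, edgeR). Both genes were also lower when lines with the same number were compared. The log2 fold change was -2.21 for Hoxa13 and -2.31 for Hoxd8 between the lines numbered 1, and -1.67 and -1.87 between the lines numbered 2. Between the lines numbered 2, Hoxd8 was no longer called when Fib-Ctrl line 2 replicate 2 was left out, nor Hoxa13 when Fib-dZeb1 line 2 replicate 2 was. The difference between these contrasts was 0.54 (SE 0.415) for Hoxa13 and 0.44 (SE 0.524) for Hoxd8, with adjusted p of 0.414 and 0.604 in edgeR. When the replicates of each line were summed, which leaves 2 samples a genotype, the log2 fold changes were -1.98 and -2.13 and neither gene was called (adjusted p = 0.171 and 0.136, edgeR), while 9 genes of 14163 were called higher and 7 lower.

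The remaining 19 tested members were not called. The smallest adjusted p among them was 0.143, for Hoxb9, with a log2 fold change of -0.67. Fold changes of all 21 ran from -2.10 for Hoxd8 to 0.45 for Hoxb7, with a median of -0.32 against -0.005 over all tested genes. 17 were below 0 and 4 above. Scaling by library size alone, which moved the median of all genes to 0.173, gave 14 and 7. The direction of small changes thus depended on the scaling. The median absolute log2 fold change was 0.334 for the Hox genes and 0.304 for all genes. Some members had standard errors wider than their fold changes, among them Hoxa9 (-0.09, SE 0.439), Hoxb4 (0.36, SE 0.51) and Hoxd13 (-0.44, SE 0.661).

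**Figure D2:**
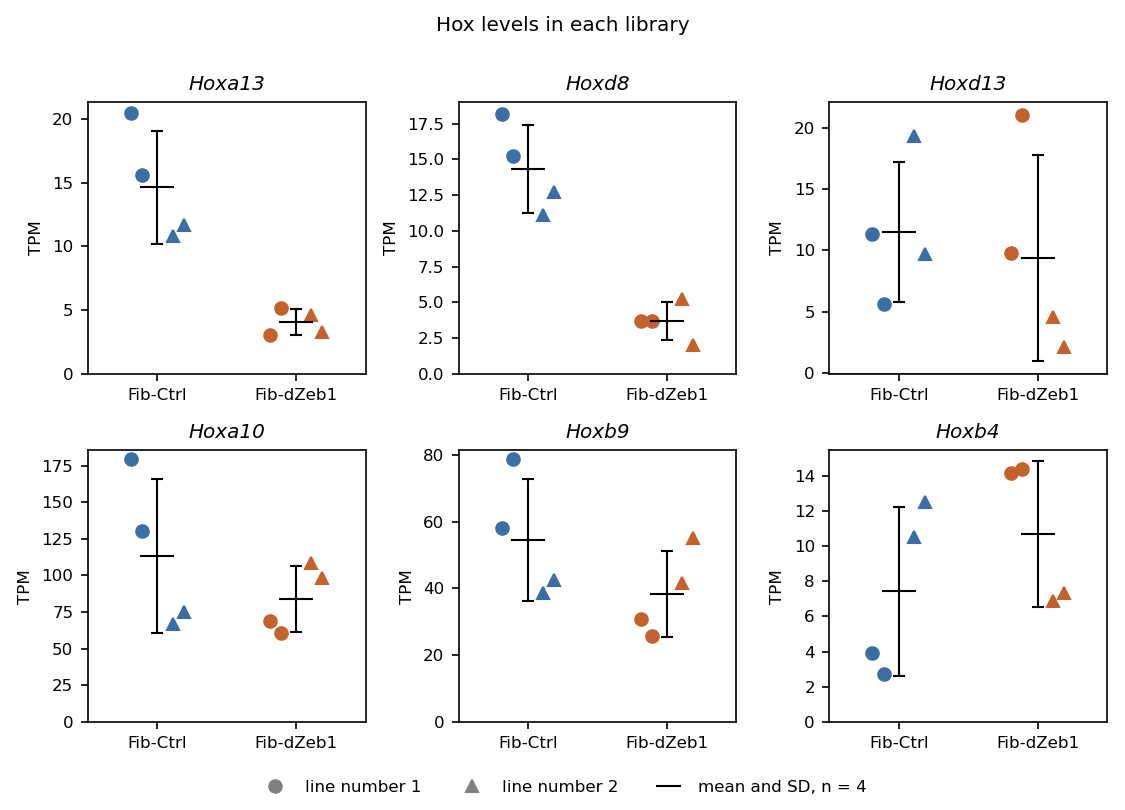
TPM of Hoxa13, Hoxd8, Hoxd13, Hoxa10, Hoxb9 and Hoxb4 in the 8 libraries, one panel a gene, with each point a library, grouped by genotype and line. Fib-Ctrl and Fib-dZeb1 are separate for Hoxa13 and Hoxd8, whereas for Hoxa10 and Hoxb4 the lines of each genotype lie apart and the genotypes overlap.

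Because Hoxa13 and Hoxd8 fell to a like extent, the 250 bases ahead of an annotated start site of each gene were compared. Both sequences are from RefSeq (GRCm38.p6), written 5′ to 3′ in the direction of transcription, with each CG dinucleotide in capitals. The Hoxa13 stretch is chr6:52260881-52261130, minus strand, and the Hoxd8 stretch is chr2:74704365-74704614, plus strand, and both lie just outside the gene model they precede. No other annotated gene overlaps the Hoxa13 stretch, whereas the Hoxd8 stretch lies in an intron of Hoxd3os1, an antisense gene on the other strand that had 26 reads in all 8 libraries.
Hoxa13: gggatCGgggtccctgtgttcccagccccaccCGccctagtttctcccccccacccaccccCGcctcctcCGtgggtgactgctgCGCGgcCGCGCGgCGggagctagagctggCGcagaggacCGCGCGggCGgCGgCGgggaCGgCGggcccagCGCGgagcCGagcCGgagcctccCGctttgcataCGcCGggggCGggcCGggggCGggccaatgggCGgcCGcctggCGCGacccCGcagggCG
Hoxd8: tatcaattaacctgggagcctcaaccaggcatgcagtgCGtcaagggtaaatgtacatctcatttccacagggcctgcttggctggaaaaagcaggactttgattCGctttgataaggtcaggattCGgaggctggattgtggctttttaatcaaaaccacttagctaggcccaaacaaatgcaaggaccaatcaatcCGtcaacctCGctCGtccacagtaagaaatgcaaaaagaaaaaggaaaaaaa
The Hoxa13 stretch held 35 CG dinucleotides and 80.0% G and C, and the Hoxd8 stretch 6 and 44.4%. With the first 50 bases after the start site included, the Hoxa13 window had more CG dinucleotides than 98.1% of 32851 promoter windows and the Hoxd8 window more than 43.6%. These start sites were not the ones most used. Transcripts beginning there made up 6.09% of Hoxa13 TPM in Fib-Ctrl and 0.703% in Fib-dZeb1, and 0 of Hoxd8 TPM, and the main transcripts began 77 and 290 bases further downstream.

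24 promoter windows of 22 Hox genes could be searched, and the other members had no window in the table used. The E-box letters CAGGTG or, on the other strand, CACCTG, which ZEB1 is known to bind, occurred in 0 of the 24 Hox windows and in 20.2% of all windows. TTTATG or CATAAA, letters bound by caudal-type factors, occurred in 5 windows, those of Hoxa7, Hoxb8, Hoxd3, Hoxd4 and Hoxd11, which is 20.8% against 11.9% of all. TGATTNAT, a Hox-Pbx type motif, was found on either strand in Hoxa2 and Hoxd11, 8.33% against 3.22%. A direct repeat of the retinoic acid receptor type was found in 0 Hox windows and in 3 windows of the whole table. The motifs do not contain one another, and the Hox windows had a median of 14.5 CG dinucleotides against 7 over all windows. An absent match says that these letters are not in these 300 bases.

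18 members did not pass the filter on low counts. For 3 of these, all in HoxD, the CPM of the genotypes did not overlap, and these are given without a test. The share of non-overlapping genes among all genes below the filter was not computed, so the number is not read as particular to Hox genes. Hoxd11, a limb and kidney gene, yielded 133 reads in Fib-Ctrl and 11 in Fib-dZeb1, at 0.962, 0.463, 4.19 and 1.6 CPM against 0, 0, 0.41 and 0.0734 CPM. Hoxd10 yielded 49 and 3 reads, and Hoxd4, the most 3′ of these, 37 and 12. The ratio of read rates, Fib-dZeb1 over Fib-Ctrl, was 0.0774 for Hoxd11 (95% interval 0.0377 to 0.143), 0.0573 for Hoxd10 (0.0114 to 0.178) and 0.304 for Hoxd4 (0.144 to 0.595), where the intervals cover counting error only. Fib-Ctrl line 2 replicate 1 gave 72 of the Hoxd11 reads and 29 of the Hoxd10 reads, the highest number of any library for both. DESeq2, which filters low counts in another way, called Hoxd11 (log2 fold change -3.91, adjusted p = 0.00353) and Hoxd10 (-4.43, adjusted p = 0.00431) lower in Fib-dZeb1.

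The other low members showed no such order. Hoxa2 had 28 reads in Fib-Ctrl and 39 in Fib-dZeb1, with a ratio of 1.3 (0.782 to 2.2), and the libraries overlapped. Hoxb13 had a ratio of 0.242 (0.096 to 0.537), but its reads came mostly from Fib-Ctrl line 1, and its libraries overlapped. Hoxd12 had 4 reads, all in Fib-Ctrl line 2 replicate 1, and Hoxd3 had 1 and 2 reads.

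Summed over the cluster, HoxD was 2.14-fold lower in Fib-dZeb1 by mean TPM, HoxA 1.23-fold and HoxB 1.05-fold. HoxD stood at 39.8, 29.0, 37.3 and 25.3 TPM in Fib-Ctrl and 16.4, 27.8, 12.5 and 4.61 TPM in Fib-dZeb1, or 32.8 ± 6.85 and 15.3 ± 9.67 TPM (SD, n = 4). 3 of the 4 Fib-dZeb1 libraries lay below all Fib-Ctrl libraries and replicate 2 of line 1, where Hoxd13 was high, did not. HoxA summed to 233.7 ± 97.3 and 189.7 ± 35.5 TPM and HoxB to 138.8 ± 18.96 and 131.7 ± 27.0 TPM, with overlapping ranges. The number 13 paralogues together were at 26.4 ± 5.61 TPM in Fib-Ctrl and 13.5 ± 9.01 TPM in Fib-dZeb1. Their ranges overlapped, at 21.5 to 32.3 TPM and 5.51 to 26.2 TPM. The mean paralogue number weighted by TPM was 8.86 ± 0.435 and 8.59 ± 0.167.

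**Figure D3:**
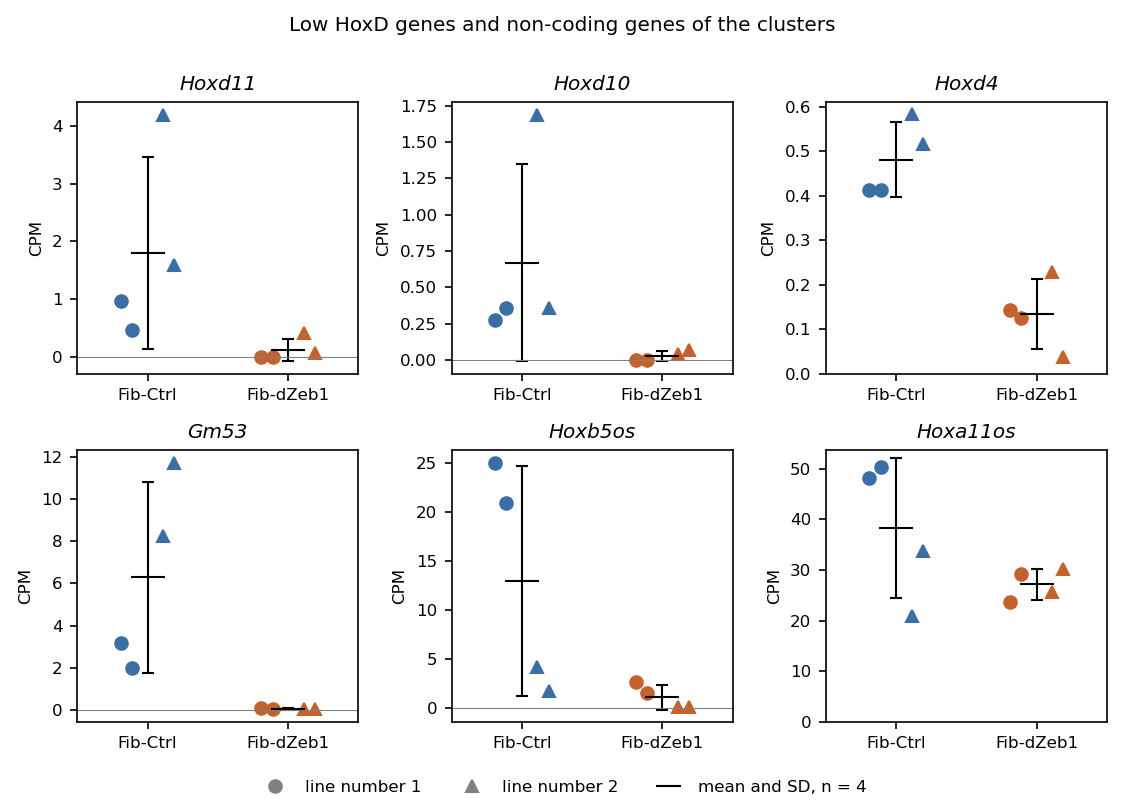
CPM in the 8 libraries of Hoxd11, Hoxd10 and Hoxd4, which were too low to be tested, and of Gm53, Hoxb5os and Hoxa11os, non-coding genes inside the clusters, with each point a library. All 4 Fib-Ctrl libraries lie above all 4 Fib-dZeb1 libraries for Hoxd11, Hoxd10, Hoxd4 and Gm53.

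Genes next to the called members did not all move with them. Hoxd9, between Hoxd10 and Hoxd8, stood at 8.29, 6.92, 0.392 and 0.34 TPM in Fib-Ctrl and 2.75, 2.89, 1.8 and 0.311 TPM in Fib-dZeb1, and was not called by genotype (log2 fold change -1.19, SE 1.05, adjusted p = 0.47, edgeR). Hoxa11 and Hoxa10, the neighbours of Hoxa13, had genotype log2 fold changes of -0.31 (SE 0.315) and -0.52 (SE 0.334). Outside the clusters, 21 of the 24 nearest protein-coding genes were tested, with 3 higher and 3 lower. This is 28.6% called in either direction, against 16.2% of all tested genes (7.54% higher and 8.65% lower). Next to HoxB, Snx11 (log2 fold change -0.48) was lower, and next to HoxC, Cbx5 (0.51) was higher. Next to HoxA, Skap2 (-0.61) and Hibadh (-0.45) were lower, and next to HoxD, Atp5g3 (0.34) and Hnrnpa3 (0.62) were higher. Within 5 Mb of HoxD, 6 of 56 tested genes other than Hox genes were higher and 0 lower, and on chromosome 2 as a whole 14.05% were higher and 5.01% lower. Within 5 Mb of HoxA, 5 of 59 were higher and 11 lower, and on chromosome 6 as a whole 3.93% and 11.1%. The numbers were 7 and 19 of 142 around HoxB, with 5.67% and 9.99% on chromosome 11, and 11 and 6 of 88 around HoxC, with 8.42% and 6.21% on chromosome 15.

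Of 43 non-coding genes annotated inside the clusters, 28 had no read and 6 were tested, with 0 higher and 2 lower, where 7.54% of all tested genes were higher and 8.65% lower. Gm53, a long intergenic RNA between Hoxb13 and Hoxb9 (chromosome 11, 96251105 to 96264868, GRCm38, plus strand), was at 3.16, 2.01, 8.27 and 11.7 CPM in Fib-Ctrl and 0.0955, 0.0419, 0.0456 and 0.0367 CPM in Fib-dZeb1. In total 477 reads in Fib-Ctrl faced 5 in Fib-dZeb1, a ratio of 0.00981 (95% interval 0.00317 to 0.0231), and the gene was called lower (adjusted p = 0.00174, edgeR). The levels of Hoxb9, the nearest Hox gene at high level, overlapped between the genotypes. 9530018H14Rik, a transcript of unsettled coding status next to Hoxa13, was called with a log2 fold change of -1.48 (adjusted p = 0.0425, edgeR).

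Hoxb5os, annotated antisense to Hoxb5 and Hoxb6, was at 25.01, 20.9, 4.13 and 1.76 CPM in the Fib-Ctrl libraries and at 2.58, 1.55, 0.0456 and 0.0367 CPM in those of Fib-dZeb1. By genotype it was not called (log2 fold change -3.63, adjusted p = 0.0818, edgeR), since the lines of each genotype also lay far apart. Hoxa11os, antisense to Hoxa11, stood at 48.3, 50.4, 20.9 and 33.8 CPM and at 23.7, 29.1, 25.7 and 30.2 CPM, with overlap. The strand setting of the counting was not given in the sources used here, so reads of antisense pairs, and of Hoxa3 with Hoxa4, Hoxa5 and Hoxa6 or of Hoxd3 with Hoxd4, which overlap in the annotation, may be split between them wrongly.

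Lines of the same genotype also differed in Hox genes. Between the Fib-Ctrl lines, 7 of the 21 members were called, 33.3% against 17.0% of all tested genes, and the median absolute log2 fold change was 0.73 for Hox genes and 0.311 for all genes. Line 2 was lower than line 1 in Hoxa9 (-1.16), Hoxa10 (-1.12), Hoxa11 (-1.27), Hoxb9 (-0.73) and Hoxd9 (-4.33), and higher in Hoxb2 (0.76) and Hoxb4 (1.82), where 8.72% of all genes were lower and 8.32% higher. Between the Fib-dZeb1 lines, 3 members were called, 14.3% against 6.87% of all tested genes, with Hoxa9 (1.35) and Hoxa10 (0.74) higher and Hoxb4 (-1.04) lower in line 2. Of all genes, 3.39% were higher and 3.48% lower in that comparison. The median absolute log2 fold changes were 0.712 and 0.257. Hoxd9 was the largest of these differences, with Fib-Ctrl line 1 at 8.29 and 6.92 TPM and Fib-Ctrl line 2 at 0.392 and 0.34 TPM (adjusted p = 0.00883, edgeR). These p-values cover the spread between replicates of a line. The Fib-dZeb1 lines also differed in sex. The counts moved when 1 library was left out, and the share of all genes called in those fits was not computed. Without Fib-Ctrl line 2 replicate 1 or replicate 2, 4 members were called between the Fib-Ctrl lines. Between the Fib-dZeb1 lines the number was 5 without line 1 replicate 1, 1 without line 2 replicate 1 and 0 without line 2 replicate 2.

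Lines with the same number were also compared across genotypes, where each contrast sets one culture against another. The lines numbered 1 also differed in sex. Between the lines numbered 1, 10 members were called, 47.6% against 27.4% of all tested genes, with 2 higher and 8 lower in Fib-dZeb1 (13.6% and 13.8% of all genes). Between the lines numbered 2, 8 were called, 38.1% against 28.8%, with 3 higher and 5 lower (14.1% and 14.6% of all genes). 6 members were called in both, and 4 of these, Hoxa9, Hoxa10, Hoxa11 and Hoxb4, had opposite signs, which is 19.05% of the tested members against 2.39% of all genes. The 2 with the same sign were Hoxa13 and Hoxd8, 9.52% against 9.48% of all genes. For fits without 1 library, the share of all genes called was not computed. The count for the lines numbered 2 fell to 4 when either replicate of Fib-Ctrl line 2 was left out, to 5 when replicate 1 of Fib-dZeb1 line 2 was left out and to 3 when its replicate 2 was.

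The difference between these contrasts was itself past the threshold for 7 members, 33.3% against 15.3% of all tested genes. It equals line 2 minus line 1 within Fib-dZeb1, less the same within Fib-Ctrl. It thus restates the differences between lines given above and depends on how the lines were numbered. The difference, lines numbered 2 minus lines numbered 1, was positive for Hoxa9 (2.52), Hoxa10 (1.86), Hoxa11 (1.48), Hoxb8 (1.59) and Hoxb9 (1.48), and negative for Hoxb4 (-2.86) and Hoxd13 (-3.08). Of all genes it was positive and past the threshold in 7.74% and negative in 7.55%. When Fib-Ctrl line 2 replicate 1 was left out, 4 members were called. Hoxb4, known from the expansion of blood stem cells, ran against the genes of higher number. It stood at 3.94, 2.74, 10.5 and 12.5 TPM in Fib-Ctrl and 14.2, 14.4, 6.86 and 7.31 TPM in Fib-dZeb1, so that Fib-Ctrl line 2 and Fib-dZeb1 line 1 were the high lines, the reverse of Hoxa9, Hoxa10 and Hoxa11. The stretch of colon sampled for each line is not in the labels, and its part in these differences was not tested.

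**Figure D4:**
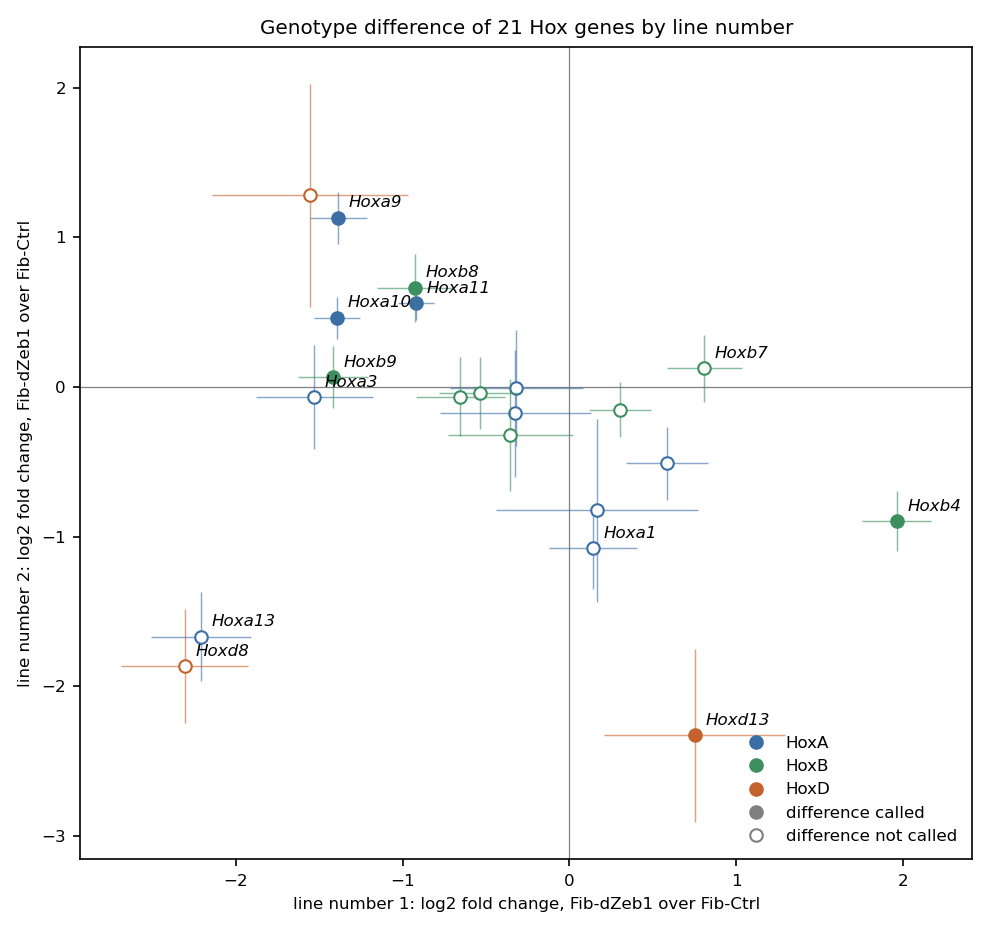
Log2 fold change, Fib-dZeb1 over Fib-Ctrl, of the 21 tested Hox genes between the lines numbered 1 (horizontal axis) and between the lines numbered 2 (vertical axis), with standard errors as bars and filled points where the difference of the contrasts was called. Hoxa13 and Hoxd8 lie in the lower left, and Hoxa9, Hoxa10, Hoxa11 and Hoxb4 lie in the quadrants of opposite sign.

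The ranked Hox profile was closest between replicates of a line. Over the 21 tested genes, Spearman's correlation was 0.940 to 0.965 between replicates of a line, 0.764 to 0.886 between the lines of one genotype, 0.726 to 0.886 between genotypes at the same line number and 0.770 to 0.894 between genotypes at the other line number. The last 3 ranges overlapped. These are correlations across genes, which are not independent replicates.

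Genes that work with Hox proteins or set their expression were examined as lists, to be read against the 7.54% of all tested genes called higher and the 8.65% called lower, or 16.2% in either direction. TALE homeodomain cofactors bind DNA together with Hox proteins. Of 9 tested, 2 were higher and 0 lower in Fib-dZeb1, 22.2% called in either direction, with a median log2 fold change of 0.19. Pbx3 ranged from 17.7 to 25.2 CPM over the Fib-Ctrl libraries and from 34.9 to 50.2 CPM over the Fib-dZeb1 libraries, without overlap (log2 fold change 1.01, SE 0.16, adjusted p = 0.00644, edgeR). Meis1 rose by 0.48 on the log2 scale (adjusted p = 0.0423).

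Polycomb proteins keep Hox clusters silent, and trithorax proteins keep them active. Of 24 Polycomb genes tested, 3 were higher (Mtf2 0.47, Phf1 0.68 and Pcgf6 0.96, on the log2 scale) and 1 lower (Ring1, -0.76), so that 16.7% were called, near the share of all genes, and the median was 0.12. Of 13 trithorax and other activator genes, 2 were higher, Wdr5 (0.46) and Psip1 (0.76), and 0 lower, 15.4% called and again near the share of all genes, with a median of 0.26. Mtf2 and Phf1 encode accessory subunits of the complex that methylates histone H3, and Ring1 a subunit of the complex that ubiquitinates histone H2A.

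Caudal factors and retinoic acid are inputs to Hox expression in the embryo. Of the 21 genes of this list 13 were tested, with 0 higher and 5 lower, 38.5% called, and a median log2 fold change of -1.20. Cdx1, Cdx2, Cdx4 and Rxrg had no read. Crabp2, a carrier of retinoic acid, fell by 3.82 on the log2 scale (adjusted p = 0.011, edgeR), with 352 reads in Fib-Ctrl and 30 in Fib-dZeb1. Aldh1a3, an enzyme that makes retinoic acid, fell by 3.24 (adjusted p = 0.0337), and Dhrs3, which turns retinal back to retinol, fell by 2.16 (adjusted p = 0.0475). The receptors Rara (-0.49) and Rarg (-0.61) were lower as well.

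Other transcription factors with a regional pattern lie outside the Hox clusters, and several of them were lower in Fib-dZeb1. Nkx3-2, a gut mesenchyme factor, fell by 4.03 on the log2 scale (adjusted p = 0.0104, edgeR), with 74 reads in Fib-Ctrl and 5 in Fib-dZeb1. Emx2 (-3.29), Osr1 (-1.16), Prrx2 (-1.09) and Foxf1 (-0.45), a factor of visceral mesoderm, were lower as well, on the log2 scale. Hand1, which did not pass the filter, had 631 reads in Fib-Ctrl and 0 in Fib-dZeb1, at 15.99 and 13.7 CPM in Fib-Ctrl line 1 and 0.582 and 0.258 CPM in Fib-Ctrl line 2. With 0 reads the Fib-dZeb1 libraries allow up to 0.0339 CPM over the group.

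Sums of several cell type markers differed between the genotypes. Calls are to be read against 7.54% of all tested genes called higher and 8.65% lower. The summed CPM of 9 fibroblast markers ranged over 41604 to 52488 for Fib-Ctrl and 12625 to 24188 for Fib-dZeb1. All 9 were tested, with 3 lower (Col1a1, Col1a2 and Pdgfrb), 33.3%, and 6 not called. Vim, Pdgfra and Thy1 were detected in both. 9 epithelial markers summed to 1.98 to 5.04 CPM and 19.9 to 130.4 CPM. Only 3 of these were tested, with Epcam and Krt18 higher and 1 not called. Cdx1 and Cdx2, which define intestinal epithelium, were at 0. 4 smooth muscle markers summed to 1519 to 3127 CPM and 394.7 to 505.0 CPM, with Cnn1 and Actg2 lower among 3 tested. 2 markers of interstitial cells of Cajal summed to 3.96 to 19.9 CPM and 20.9 to 86.6 CPM, with Ano1, the 1 tested, higher. 3 mesothelial markers summed to 0.0582 to 0.916 CPM and 1.53 to 8.58 CPM, with Msln, the 1 tested, higher. The sums of 3 markers each stayed at or below 3.74 CPM for endothelium, 2.15 CPM for glia and 1.38 CPM for immune cells, and at or below 11.3 CPM for enteric neurons. The part of these markers in the Hox differences was not tested, and in bulk RNA fewer cells of a type and less RNA per cell cannot be told apart. Xist was detected in the libraries of Fib-dZeb1 line 1 and Ddx3y in those of the other 3 lines, so the lines numbered 1 differ in sex.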

How the data were processed

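Poly(A) RNA of 8 libraries was sequenced by the authors, who used STAR for alignment to GRCm38 and Salmon for quantification (versions, annotation and strand setting not given in the sources used here). The deposited expected counts (estimated reads per transcript) and the deposited TPM, scaled by the authors to the same total in each library, were summed to genes with GENCODE M21. 108214 of 109617 transcripts (98.72%) matched, and 0.262% to 0.303% of reads did not. Summed counts were rounded, filtered with filterByExpr by genotype, scaled by TMM and tested in edgeR 4.0.16 (R 4.3.3, quasi-likelihood) over 12963 genes with Benjamini-Hochberg adjustment at 0.05. The biological coefficient of variation was 32.1%. Contrasts of lines used a mean per line. Alternatives were library size and RLE scaling, no filter, replicate blocks, DESeq2 1.42.0, summed lines, limma 3.58.1 with a correlation within lines or on log2(TPM + 0.1) and log2(TPM + 1), and each library left out. Genes were named when called, or when among the 3 highest by mean TPM of a cluster. Further members were singled out after their values were seen. Motifs were searched in RefSeq promoter windows (250 bases before to 50 after a start). The members and lists were chosen with earlier results of these data known. Some genes of the list of regional transcription factors are not reported here, so no count is given for that list.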

Additional observations from a re-analysis of the deposited data

Results flagged for a closer look

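In the lines numbered 2 minus those numbered 1, the genotype log2 fold change differed, by the edgeR test of the difference itself, for 7 Hox genes: Hoxa9 by 2.52 (SE 0.243, adjusted p = 0.00193), Hoxa10 by 1.86 (SE 0.196, adjusted p = 0.00234), Hoxa11 by 1.48 (SE 0.153, adjusted p = 0.00227), Hoxb8 by 1.59 (SE 0.322, adjusted p = 0.0189), Hoxb9 by 1.48 (SE 0.291, adjusted p = 0.0169), Hoxb4 by -2.86 (SE 0.287, adjusted p = 0.002) and Hoxd13 by -3.08 (SE 0.792, adjusted p = 0.0398). Lines with the same number are not known to be related, and the lines numbered 1 differed in sex. These values restate the differences between lines of a genotype and depend on how the lines were numbered. They are not read as a property of the genotype.

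Hoxb3 was at 19.6 CPM in Fib-Ctrl line 1 replicate 1, far from the other 3 Fib-Ctrl libraries. Its gap to the nearest of them was 0.887 of the range of the group and exceeded Dixon's critical value at the 95% level. Of 42 groups of 4 libraries examined, 1 exceeded this value, and chance alone does so in about 1 in 20 groups.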

How the results depend on the processing

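By genotype over all libraries, Hoxa13 and Hoxd8 kept their direction and call under all alternatives run except summed lines, where 0 members were called (adjusted p = 0.171 and 0.136). With limma and a correlation of 0.543 within lines, they had adjusted p of 0.039 and 0.0386, and all genes 114 higher and 146 lower. DESeq2 called 4 members lower (Hoxd10 and Hoxd11 added), with 1572 genes higher and 1758 lower in all. Without a filter the count of members was 3 by genotype, 13 between the lines numbered 2, 11 between the Fib-Ctrl lines and 8 between the Fib-dZeb1 lines. Leaving out 1 library gave 2 to 3 members lower by genotype, 7 to 11 called between the lines numbered 1, 3 to 11 between those numbered 2, 4 to 7 for the difference, 4 to 9 between the Fib-Ctrl lines and 0 to 5 between the Fib-dZeb1 lines. In these fits the lone sample of a line is assumed to vary like the others. By genotype, 3.85% to 8.64% of all genes were called lower in the fits without 1 library. The share was 4.39% without a filter and 8.07% with the replicate block. For the contrasts of lines, the shares of all genes under these alternatives were not computed, so shifts in those counts are not read as particular to Hox genes. The causes of these shifts were not tested. All genes split into 978 higher and 1121 lower under TMM, 2272 and 719 by library size, 1984 and 725 on TPM with pseudocount 0.1, 1994 and 725 with pseudocount 1, and 9 and 7 with lines summed. Replicate numbers did not pair the samples: same-numbered deviations correlated at -0.041 to 0.203; the closest library bore the same number for 3 of 8. The replicate block gave 0 members higher and 2 lower by genotype and 6 called between the Fib-dZeb1 lines. Depth limits the 18 members below the filter, which the edgeR test with its filter did not cover. Without the filter edgeR called Hoxd10 (-4.16, adjusted p = 0.0326).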

Other observations

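Transcript forms inside the HoxA genes also differed between libraries. These forms were chosen after their values were seen, and no test was made. Hoxa9-203, a form of Hoxa9 without a coding sequence, took 24.6% and 23.5% of the Hoxa9 TPM in Fib-Ctrl line 1 and 25.4% and 28.2% in Fib-dZeb1 line 2, the lines with the higher Hoxa9 levels. In Fib-Ctrl line 2 and Fib-dZeb1 line 1 its estimate was 0 in all libraries. Hoxa10-204, a form of Hoxa10 without a coding sequence, held 13.4% to 17.3% of the Hoxa10 TPM in the Fib-Ctrl libraries and 5.12% to 10.3% in the Fib-dZeb1 libraries, so that the genotypes did not overlap. Shares of forms that share exons are estimates of the quantification and not direct counts.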
